A study of Homo sapiens with 4 samples.

Results

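The deposited table of protein-coding genes called differentially expressed after silencing of the long non-coding RNA HMRHL listed 28 solute carrier and ABC transporter genes among its 742 symbols. They were taken by name: a symbol that begins with SLC and a digit or the letter O, or with ABC, a letter A to G and a digit. Of the 28, 24 were solute carriers and 4 were ABC transporters. RNA was sequenced from K562, an established human cell line derived from chronic myelogenous leukaemia and driven by the BCR-ABL1 fusion kinase. There were 2 libraries from K562 cells transfected with HMRHL siRNA and 2 from K562 cells transfected with scramble siRNA, all taken 36 hours after transfection. The labels name a single cell line, and whether a group's libraries came from separate cultures is not stated in them. HMRHL lies within an intron of PHKB, a gene for a phosphorylase kinase subunit.

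The table gives 1 fold change per gene with no error, level, p-value or value per library. The depth of the libraries, the spread between replicates, the silencing of HMRHL and the K562 markers could therefore not be checked from it. Values are given as log2 of HMRHL siRNA over scramble siRNA, a scale and a direction that the table does not state. These values chose the members, since only genes the authors had selected are in the table, so what follows describes them and carries no test of change.

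Solute carriers move ions, nutrients and metabolites across membranes, either down a gradient or by coupling the substrate to another gradient such as that of sodium or protons. Families share a number in the gene symbol and often, though not always, a kind of substrate. ABC transporters are powered by ATP and move lipids, sterols and drugs among other substrates. Many of both groups are used mainly in kidney, gut, liver, retina or brain, and blood cell precursors such as those K562 resembles rely on carriers of glucose, amino acids, iron and haem precursors.

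After HMRHL siRNA, 7 of the 28 transporters were listed as higher and 21 as lower than with scramble siRNA. The whole table held 3.71% of the 19907 protein-coding symbols of GENCODE release 29, 1.14% listed as higher and 2.58% as lower. With the unstated ratio read the other way round, the same entries would be 21 higher and 7 lower. Lower genes made up 75.0% of the transporters and 69.4% of all 742 symbols. The highest were SLC1A3, a plasma membrane glutamate transporter of glia, at 2.57, ABCA4, a retinoid flippase of photoreceptors, at 2.53, and SLC2A6, a hexose transporter of the GLUT family, at 2.20 in the authors' deposited table. The lowest in the authors' deposited table were SLC22A31, an organic ion family member without an established substrate, at -3.79, SLC22A11, the organic anion and urate transporter OAT4, at -3.17, and SLC5A12, a sodium-coupled lactate transporter, at -3.04. Read as log2, the authors' deposited table places SLC1A3 5.95-fold and ABCA4 5.77-fold higher, and SLC22A31 13.8-fold, SLC22A11 9.0-fold and SLC5A12 8.25-fold lower with HMRHL siRNA. In GENCODE release 29 on GRCh38, SLC1A3 lies on chromosome 5 from 36606355 to 36688334 (plus strand), ABCA4 on chromosome 1 from 93992835 to 94121132 (minus strand) and SLC5A12 on chromosome 11 from 26667019 to 26723427 (minus strand). If the column were a signed linear fold, the same entry for SLC22A31 in the authors' deposited table would mean 3.79-fold lower.

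**Figure D1:**
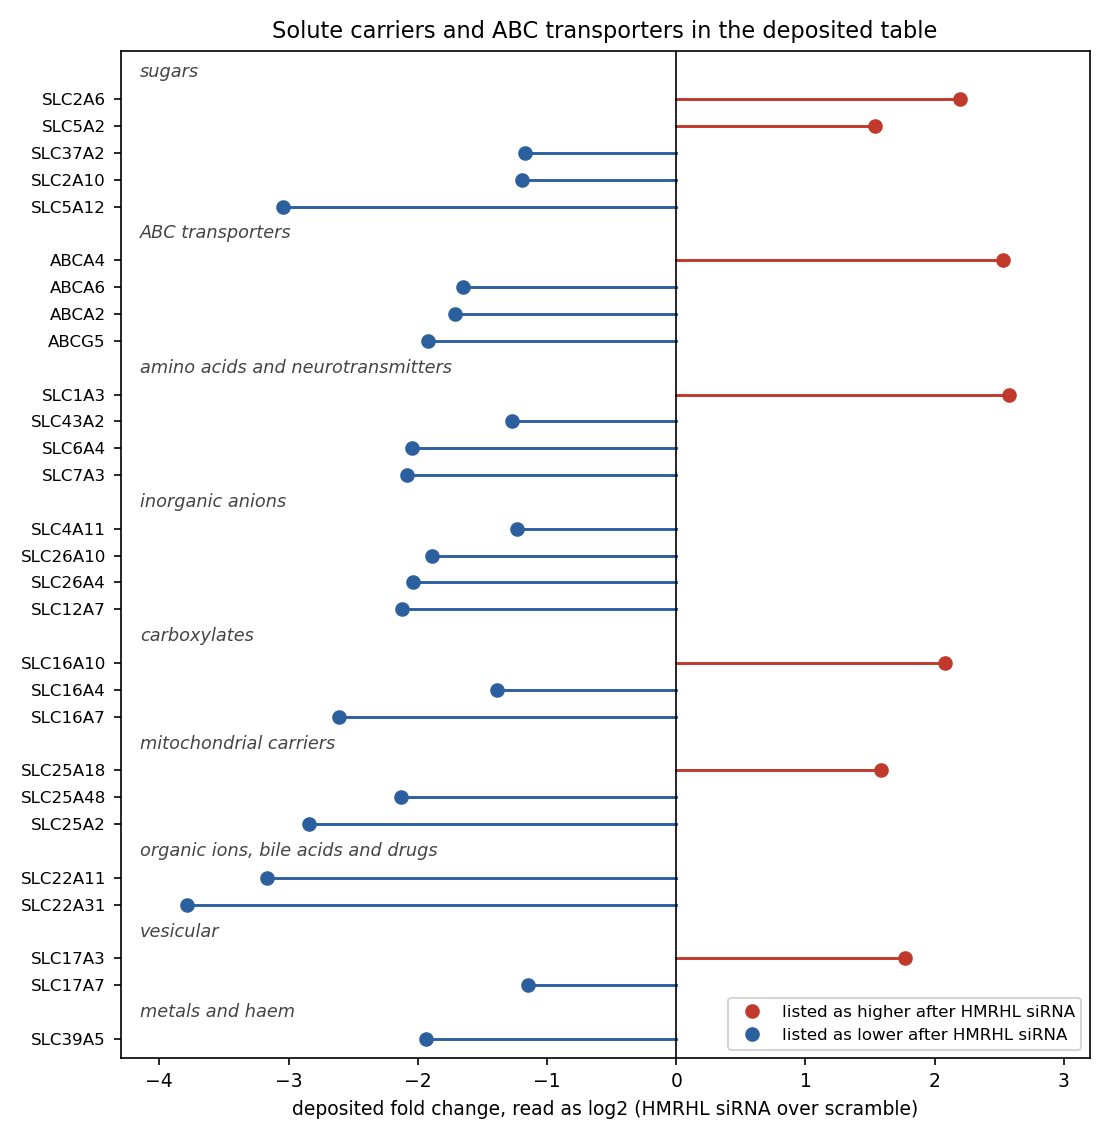
Deposited fold change of each of the 28 transporters, read as log2 of HMRHL siRNA over scramble siRNA (horizontal axis), grouped by the substrate class of the family. Each point is 1 gene with no error. The 4 genes of the inorganic anion class and the 2 of the organic ion class all lie to the left of 0. So do 21 of the 28 transporters, and SLC22A31 lies farthest left. Of all 742 symbols 69.4% were listed as lower.

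The median over the transporters was -1.68, against -1.44 over all 742 symbols in the authors' deposited table. Among genes listed as lower, the median was -1.94 for the 21 transporters and -1.71 for all 515 symbols in the authors' deposited table. Among genes listed as higher, the medians of the authors' deposited table were 2.08 for the 7 transporters and 2.05 for all 227 symbols. At least 4-fold values were held by 14 of the 28 transporters (50%), 4 higher and 10 lower, and by 294 of all 742 symbols (39.6%). Read as signed linear folds, 0 of the 28 transporters and 17 of all 742 symbols would reach 4-fold. None of the 20 highest values of the table belonged to a transporter, and 1 of the 20 lowest did, that of SLC22A31. Transporters were 28 of the 742 symbols, and nothing is read from these counts.

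The transporters also reached the edge of the selection. SLC17A7, the vesicular glutamate transporter VGLUT1, had the entry nearest to 0 of all 742 symbols, at -1.15 in the authors' deposited table. That is a 2.22-fold difference read as log2 and a 1.15-fold one read as a signed linear fold. The next transporters were SLC37A2 at -1.17 and SLC2A10 at -1.19, while on the higher side SLC5A2 at 1.53 was the transporter nearest to the smallest higher entry of the authors' deposited table, 1.50. In all, 6 of the 21 lower transporters, and 176 of the 515 lower symbols, were nearer to 0 than any higher gene in the table. Genes outside the selection were not analysed here.

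**Figure D2:**
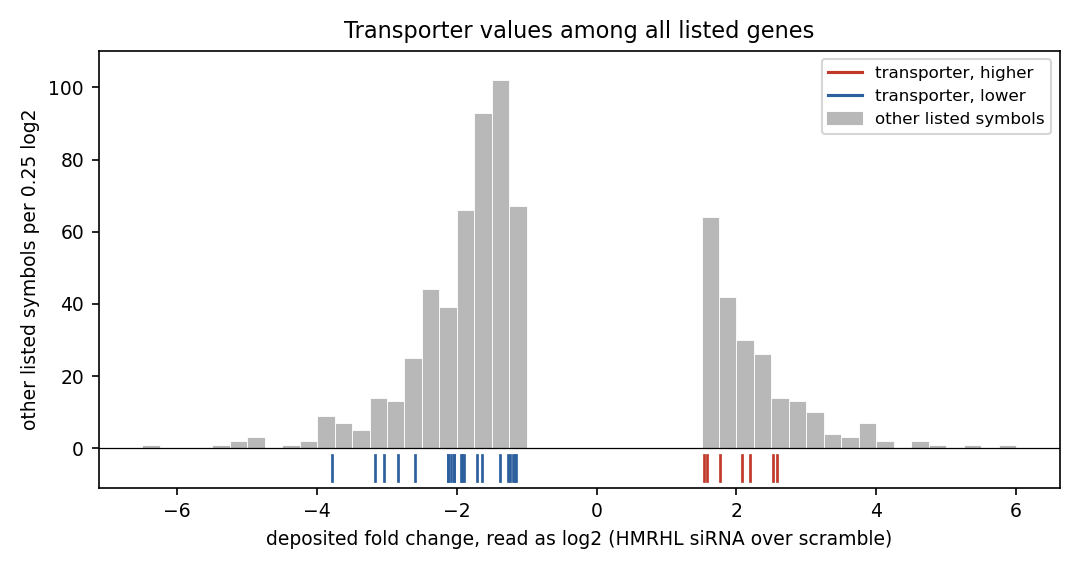
Number of the other 714 listed symbols per 0.25 log2 units of the deposited fold change (grey bars), with 1 tick below the axis for each of the 28 transporters. The ticks span -3.79 to 2.57, within the range of the other genes, and no gene of either kind lies between -1.15 and 1.50.

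In GENCODE release 29, 431 protein-coding symbols fit the same naming rule, so 6.5% of annotated transporters were in the table. For all protein-coding symbols this share was the 3.71% given above. How many transporters K562 cells express at a testable level was not analysed here, and nothing is read from these shares. The 28 genes came from 17 of 58 families. Of the 8 families with at least 2 listed genes, 6 had genes in both directions (ABCA, SLC2, SLC5, SLC16, SLC17 and SLC25) and 2 had only lower genes (SLC22 and SLC26). No gene was listed from 6 families that have 10 or more annotated genes. These were SLC35 (nucleotide sugar transporters, 31 genes), SLC9 (sodium-proton exchangers, 15), SLCO (organic anion carriers, 12), ABCC (the multidrug resistance protein family, 11), SLC38 (amino acid carriers, 11) and SLC30 (zinc exporters, 10).

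**Figure D3:**
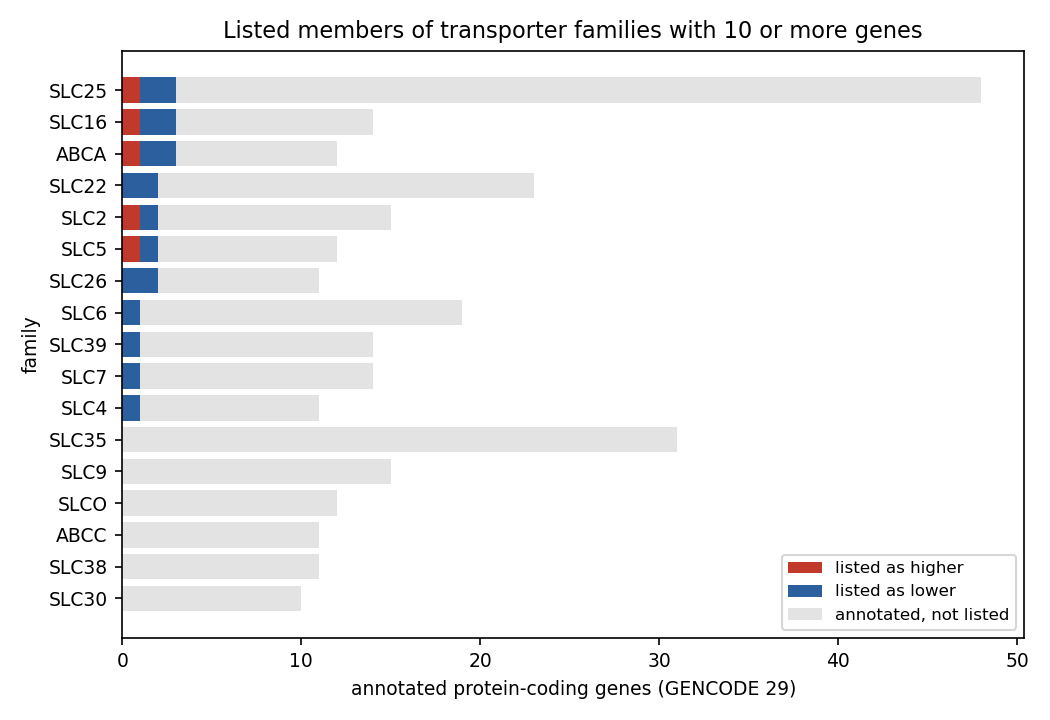
Annotated protein-coding genes (horizontal axis) of each transporter family with 10 or more genes, split into listed as higher, listed as lower and not listed. Listed genes are few in each family: at most 3, in SLC25, SLC16 and ABCA.

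Sugar transporters and their relatives were listed in both directions. Of the 36 annotated genes of this class, 2 were higher and 3 lower. SLC2A6 (GLUT6), which resides largely in lysosomes, was at 2.20 in the authors' deposited table, whereas SLC2A10 (GLUT10), linked to arterial tortuosity syndrome, was at -1.19. Likewise within SLC5, SLC5A2 (SGLT2), the sodium-glucose cotransporter of the kidney tubule and target of the gliflozin drugs, was at 1.53, and SLC5A12 (SMCT2), whose substrates are lactate and other monocarboxylates rather than sugars, was at -3.04 in the authors' deposited table. SLC37A2, a sugar phosphate exchanger of the endoplasmic reticulum, was at -1.17 in the authors' deposited table. The intestinal and renal relative of SLC5A2, SLC5A1, and the relative of SLC5A12, SLC5A8, were not listed. The table held 3.71% of all protein-coding symbols. Nothing is therefore read from this absence, or from that of other relatives and partners named below.

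The promoter windows of the SLC5 and SLC2 pairs, with the window of SLC22A31 as the lowest transporter, are given below to show the letters of a CpG-poor and a CpG-rich kind of promoter; the pairs were chosen after their values and windows were seen. They are RefSeq sequences on GRCh38.p14, from 250 bases before to 50 bases after RefSeq's gene start, 5′ to 3′ on the gene's strand, with CpG dinucleotides in capitals. The windows are chr16:31482873-31483172 on the plus strand (SLC5A2), chr11:26722011-26722310 on the minus strand (SLC5A12), chr9:133479050-133479349 on the minus strand (SLC2A6), chr20:46709399-46709698 on the plus strand (SLC2A10) and chr16:89201629-89201928 on the minus strand (SLC22A31). RefSeq's start lies 1367 bases inside the GENCODE gene for SLC5A12, 162 bases for SLC2A10, 121 bases for SLC5A2 and 38 bases for SLC2A6, and 14 bases before it for SLC22A31.
SLC5A2: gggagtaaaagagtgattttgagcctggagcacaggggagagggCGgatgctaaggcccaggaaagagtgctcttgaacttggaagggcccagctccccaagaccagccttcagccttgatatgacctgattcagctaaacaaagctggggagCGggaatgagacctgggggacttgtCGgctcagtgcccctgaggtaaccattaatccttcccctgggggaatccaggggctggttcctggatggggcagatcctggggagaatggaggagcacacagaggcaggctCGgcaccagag
SLC5A12: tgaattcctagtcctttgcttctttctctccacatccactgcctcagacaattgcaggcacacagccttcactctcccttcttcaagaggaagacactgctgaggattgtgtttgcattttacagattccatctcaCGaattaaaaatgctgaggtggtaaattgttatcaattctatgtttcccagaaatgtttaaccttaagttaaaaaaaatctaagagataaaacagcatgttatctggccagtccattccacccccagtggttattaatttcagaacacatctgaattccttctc
SLC2A6: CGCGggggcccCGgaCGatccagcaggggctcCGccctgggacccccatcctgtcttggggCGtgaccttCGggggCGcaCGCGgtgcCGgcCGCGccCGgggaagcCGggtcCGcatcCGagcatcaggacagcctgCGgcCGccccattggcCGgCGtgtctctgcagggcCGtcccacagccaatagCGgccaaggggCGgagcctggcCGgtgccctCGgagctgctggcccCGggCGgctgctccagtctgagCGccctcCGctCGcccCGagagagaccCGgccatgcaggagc
SLC2A10: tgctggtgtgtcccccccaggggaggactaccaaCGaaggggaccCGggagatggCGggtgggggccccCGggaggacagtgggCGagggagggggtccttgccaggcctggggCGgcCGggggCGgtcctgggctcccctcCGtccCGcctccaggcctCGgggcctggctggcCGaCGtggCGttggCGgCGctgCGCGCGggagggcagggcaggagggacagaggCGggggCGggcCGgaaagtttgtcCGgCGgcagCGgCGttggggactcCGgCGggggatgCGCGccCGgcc
SLC22A31: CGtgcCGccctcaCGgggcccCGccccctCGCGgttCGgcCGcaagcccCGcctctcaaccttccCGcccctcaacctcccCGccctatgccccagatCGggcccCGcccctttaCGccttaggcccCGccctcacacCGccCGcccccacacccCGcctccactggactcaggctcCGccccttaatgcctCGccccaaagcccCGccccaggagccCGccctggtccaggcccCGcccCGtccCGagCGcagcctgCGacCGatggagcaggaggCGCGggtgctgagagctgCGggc
The SLC5A2 window holds 4 CpG dinucleotides and that of SLC5A12 holds 1. The SLC2A6 and SLC2A10 windows hold 33 and 31, and the SLC22A31 window 31. GC content was 58% for SLC5A2 and 39.3% for SLC5A12, and 76% for SLC2A6 and 78% for SLC2A10.

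Windows were called CpG-rich at a GC content of at least 50% and an observed over expected CpG ratio of at least 0.6. Promoter windows were found for 21 of the 28 transporters, 29 windows in all, and 12 of these 21 genes (57.1%) had a CpG-rich window. Over all listed genes with windows the share was 306 of 542 (56.5%), over annotated solute carriers and ABC genes 66.3%, and over all protein-coding genes 68.4%. By direction, 2 of 6 higher and 10 of 15 lower transporters had a CpG-rich window, against 58.6% of all higher and 55.4% of all lower listed genes. Among higher transporters for which a window was found, SLC1A3, SLC17A3, SLC25A18 and SLC5A2 lacked a CpG-rich one. Families listed in both directions did not share a pattern. SLC17A3 and SLC25A18, both higher, lacked a CpG-rich window, while their lower relatives SLC17A7 and SLC25A48 had one. No window was found for the lower SLC25A2. RefSeq's start lies 8043 bases inside the GENCODE gene for SLC17A3 and 833 bases for SLC17A7. In ABCA, the lower ABCA2 had a CpG-rich window and the lower ABCA6 did not, and none was found for the higher ABCA4. In SLC16, the higher SLC16A10 and the lower SLC16A7 had one and the lower SLC16A4 did not. Both SLC2 genes had one and neither SLC5 gene did.

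The following 4 short motifs were searched on both strands of each window. The GC box GGGCGG occurred in 17 of the 29 transporter windows (58.6%) and in 56.3% of 22199 windows of all protein-coding genes. The CCAAT box (CCAAT) occurred in 8 transporter windows (27.6%, against 34.7%), the TATA box TATAAA in 2 (6.9%, against 9.47%) and the GATA motif AGATAA in 3 (10.3%, against 7.91%). The SLC22A31 window held 12 GC box matches, all as CCGCCC on the gene's strand, and those at positions 138 and 142 overlap. This was the largest count of the 29 transporter windows searched for the 4 motifs. As many matches were reached in 14 of the 22199 windows (0.0631%). SLC5A12 and ABCG5 each had 2 copies of AGATAA, and 0.748% of all protein-coding windows held 2 or more. These matches describe the letters only.

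**Figure D4:**
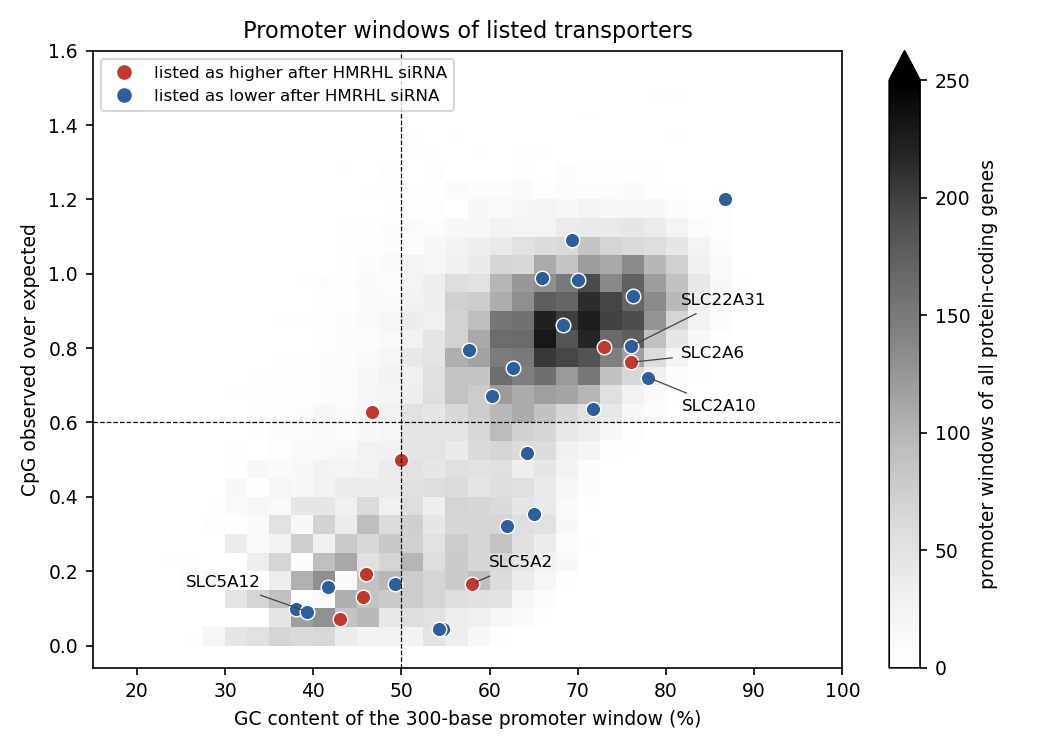
GC content in percent (horizontal axis) and CpG observed over expected (vertical axis) of the 29 promoter windows of 21 transporters, over the windows of all protein-coding genes in grey. Dashed lines mark 50% and 0.6. SLC5A2 and SLC5A12 lie low, while SLC2A6, SLC2A10 and SLC22A31 lie past both lines, on the CpG-rich side.

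Of 19 annotated genes of the carboxylate class, 14 belong to SLC16 and 5 to SLC13, and the listed ones, 1 higher and 2 lower, were all from SLC16. SLC16A7 (MCT2), a high-affinity transporter of pyruvate and lactate, was at -2.61 and SLC16A4 (MCT5), whose substrate is not well defined, at -1.39 in the authors' deposited table. SLC16A10 (TAT1), which carries aromatic amino acids rather than carboxylates, was at 2.08 in the authors' deposited table. With SLC5A12, both listed lactate transporters were thus lower, a pairing made after the values were seen. BSG and EMB, the glycoproteins that bring monocarboxylate transporters to the cell surface, were not listed.

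Amino acid and neurotransmitter transporters had 1 higher and 3 lower genes of 61 annotated. SLC1A3 (EAAT1 or GLAST), which clears glutamate from outside the cell, was the highest of all 28 at 2.57 in the authors' deposited table. SLC6A4, the serotonin transporter of neurons and platelets, was at -2.05, SLC7A3, the cationic amino acid transporter CAT3, at -2.08, and SLC43A2, the neutral amino acid transporter LAT4, at -1.27 in the authors' deposited table. SLC7A1, the widely expressed relative of SLC7A3, was not listed, nor was SLC18A2, the vesicular monoamine transporter.

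Of the 48 annotated mitochondrial carriers of the SLC25 family, which carry metabolites across the inner membrane, 1 was higher and 2 were lower. SLC25A18, a glutamate carrier, was at 1.59, SLC25A48, linked to choline import, at -2.13, and SLC25A2, an ornithine carrier, at -2.84 in the authors' deposited table. SLC25A2 is a gene of 1 exon, lying at 141302629 to 141304045 of chromosome 5, on the minus strand, among the protocadherin clusters. The relatives SLC25A22 and SLC25A15 were not listed. In the SLC17 family, SLC17A3 (NPT4), an efflux transporter of urate and other organic anions in the kidney rather than a vesicular one, was at 1.77 and SLC17A7 at -1.15 in the authors' deposited table. Glutamate carriers grouped by hand after their values were seen therefore had SLC1A3 and SLC25A18 listed as higher and SLC17A7 as lower. Urate carriers had SLC17A3 higher and SLC22A11 lower.

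All 4 listed genes of the inorganic anion class, of 36 annotated, were lower, as were 69.4% of all 742 symbols. The class is set by family number, not by the substrate of each gene. SLC12A7, the potassium-chloride cotransporter KCC4, was at -2.13, and SLC26A4 (pendrin), an exchanger of chloride, iodide and bicarbonate of thyroid and inner ear, at -2.04 in the authors' deposited table. SLC26A10 was at -1.89 and SLC4A11, a proton or hydroxide conducting relative of the bicarbonate transporters with a role in the corneal endothelium, at -1.24 in the authors' deposited table. SLC26A10 is protein-coding in GENCODE release 29, whereas RefSeq names it SLC26A10P and annotates it as a transcribed pseudogene. Both listed organic ion transporters, of 46 annotated in that class, were the lowest of the 28, SLC22A31 and SLC22A11. SLC22A31 is a minus-strand gene of chromosome 16, from 89195761 to 89201664, and SLC22A11 a plus-strand gene of chromosome 11, from 64555626 to 64572875. SLC22A12 (URAT1), the tandem neighbour of SLC22A11 at 17.8 kb, was not listed. Of 34 metal and haem transporters, SLC39A5 (ZIP5), a zinc importer of gut and pancreas, was listed alone, at -1.94 in the authors' deposited table.

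Of 45 annotated ABC genes, 4 were listed. ABCA4, at 2.53, was the single higher one, and ABCA2, a lipid transporter of brain and lysosomes, was at -1.71, ABCA6 at -1.65 and ABCG5 at -1.92 in the authors' deposited table. ABCG5 pairs with ABCG8 to export sterols. ABCG8 lies head to head with it on chromosome 2, shares 137 exon bases with it on the opposite strand, and was not listed. ABCA6 sits in a cluster on chromosome 17 with ABCA5, ABCA8, ABCA9 and ABCA10, the farthest 123 kb away and none listed. SLC17A1, SLC17A2 and SLC17A4 beside SLC17A3, and SLC26A3 beside SLC26A4, were likewise absent. No listed transporter thus had a family neighbour within 200 kb that was also listed. The listed share was 3.71% over all protein-coding symbols and 6.5% over annotated transporters, so nothing is read from this absence.

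The transporters lay on 14 chromosomes, with 4 on chromosome 5. On chromosome 16, which holds PHKB, SLC5A2 lay 15970 kb and SLC22A31 41494 kb from that gene. For 9 of the 28 (32.1%) another listed gene lay within 100 kb, as it did for 123 of 739 listed genes (16.6%). The nearest pairs were SLC5A2 with TGFB1I1, a focal adhesion adaptor, and SLC25A18 with CECR2, a bromodomain chromatin protein. SLC5A2 spans chromosome 16 from 31483002 to 31490860, and TGFB1I1 ends 5.04 kb upstream on the same strand. These stood at 1.53 for SLC5A2 and -3.30 for TGFB1I1 in the authors' deposited table. CECR2, 5.29 kb upstream of SLC25A18 on the same strand, was at -1.42 in the authors' deposited table, against 1.59 for SLC25A18. ADAMTS13, the protease of von Willebrand factor, 11.7 kb from SLC2A6, was at -1.85 in the authors' deposited table. Beside lower transporters, NRXN2, a presynaptic adhesion protein 33.3 kb from SLC22A11, was at 1.52 and EFCAB5, 85.9 kb from SLC6A4, at 3.01 in the authors' deposited table. Listed as lower like the transporter beside them were C8G, 60.25 kb from ABCA2, at -2.59 and CD37, 86.06 kb from SLC17A7, at -1.56 in the authors' deposited table. In 7 of these 9 cases the neighbour was listed in the opposite direction, so 2 (22.2%) shared it, whereas 66 of the 123 listed genes with such a neighbour (53.7%) did. A pair of listed genes that are nearest to each other counts once from each side. By direction, 0 of 4 higher and 2 of 5 lower transporters shared it, against 12.5% of 32 higher and 68.1% of 91 lower listed genes.

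**Figure D5:**
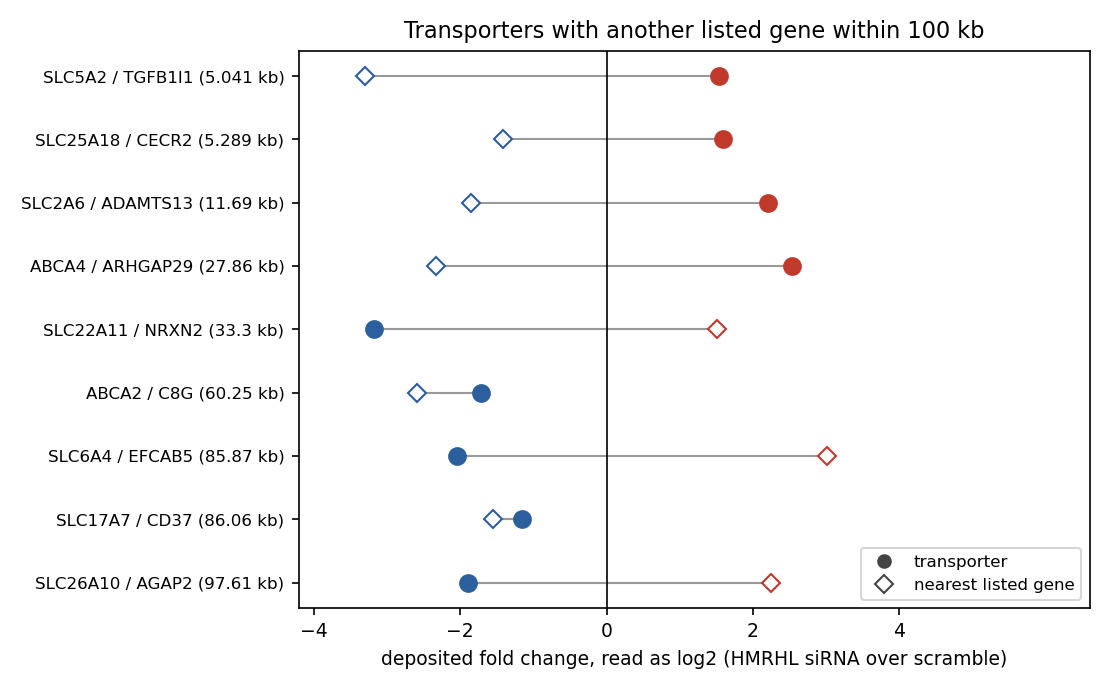
Deposited fold change, read as log2 of HMRHL siRNA over scramble siRNA, of the 9 transporters with another listed gene within 100 kb (filled circles) and of that gene (open diamonds), ordered by the gap in kb. In 7 of 9 rows the symbols lie on opposite sides of 0.

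Of the 28 transporters, 9 (32.1%) shared exon bases with a gene of the opposite strand and 2 (7.14%) with another gene of their own strand, against 37.3% and 5.8% of all listed symbols. The longest shared stretches were 2136 bases between SLC26A10 and B4GALNT1, a ganglioside synthase gene, and 1390 bases between SLC5A2 and C16orf58. The library kit was stranded per the labels, but no source used here states how strand entered the counting, so reads in these overlaps cannot be assigned with certainty to SLC26A10 or SLC5A2. On their own strand, SLC25A48 shared 642 bases with AC034206.1 and 260 with AC114296.1, and SLC17A3 shared 253 with HIST1H2APS2. Strand cannot separate reads in these stretches, and leaving out same-strand overlaps was not run. Of the 7 higher transporters, SLC16A10, SLC25A18 and SLC5A2 had an opposite-strand overlap and SLC17A3 a same-strand one. No transporter had a near-identical copy elsewhere; the largest match at 95% identity covered 5.17% of the SLC25A18 transcript. The transporters had a median of 558 codons in the longest coding sequence, as against 495 over all listed genes and 555 over all annotated solute carriers and ABC genes. The range ran from 301 codons in SLC25A2 to 2466 in ABCA2. SLC2A6, SLC12A7 and SLC43A2 each filled 2 rows of the table with an identical value, as 37 of all 742 symbols filled more than 1.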

How the data were processed

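RNA of K562 cells was sequenced in 4 libraries, 2 with HMRHL siRNA and 2 with scramble siRNA, and a single table of both groups together was analysed. The values, taken as log2 fold changes, were computed by the authors from their libraries before they deposited the table, which names no unit. The log2 reading rests on the presence of both signs and on values of up to 6 significant digits, the form in which Cuffdiff prints log2. A signed linear fold could not be told apart. Tools named, per the submitters' processing notes, are Cufflinks, Cuffdiff, TopHat, Bowtie2, SAMtools 1.3.1 and Trim Galore 0.4.4, with the builds GRCh38 and hg38. The order, settings and selection threshold are not given in the sources used here.

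Each symbol was counted once. With no values per library, no test, replicate error or depth limit could be given, and none of the tests planned for such values was run. All 28 transporters matched GENCODE release 29 (GRCh38, the build named); positions are 1-based. Classes follow family numbers. Members, lists and families were chosen with earlier results of these data known; every member is named, and other genes only as neighbours, relatives or partners, or as stated. A search with BLAST 2.17.0 sought near-identical copies at 95% identity over at least 50% of the longest transcript. Promoter windows are RefSeq's; the overlap, motif and CpG functions were tested on simulated data. Alternatives were every row counted, an equal minimum in both directions, a 4-fold minimum, leaving out opposite-strand overlaps, older symbols translated, the linear reading, and, added later, the ratio turned round and leaving out a gene that RefSeq annotates as a pseudogene. Scripts ran under Python 3.11.15 with matplotlib 3.10.9, SciPy 1.17.1, pandas 2.3.3 and numpy 2.4.6.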

Additional observations from a re-analysis of the deposited data

How the results depend on the processing

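Counted from the authors' deposited table, 7 transporters were higher and 21 lower. With entries under 4-fold left out, 4 higher and 10 lower were left, against 118 higher and 176 lower of all 742 symbols. Without opposite-strand exon overlaps 4 higher and 15 lower were left. Both settings leave out genes by construction. Turning the unstated direction of the ratio round, an alternative added after seeing the data, gives 21 higher and 7 lower and a median of 1.68. With the direction as read, lower genes were the majority and the median was negative in the other 6 alternatives run: it was -1.68 with every transporter and between -2.11 (4-fold) and -1.65. An equal minimum of 1.50 left 7 higher and 15 lower. Over the whole table it left out 176 of the 515 lower symbols and no higher one. Every row gave 8 and 23, older symbols 7 and 22 (adding MFSD4A), and without SLC26A10, chosen after seeing the data, 7 and 20. The median fold was 3.97 read as log2 and 1.99 read as a signed linear fold. Of annotated solute carriers alone 6.22% were listed, and of ABC genes alone 8.89%. No near-identical copy was found, so leaving such genes out was not run. No paired analysis was possible because the table holds no value per library, and for the same reason no replicate could be left out.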

Other observations

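Transport proteins outside the naming rule were also in the authors' deposited table; they were chosen after their values were seen. MFSD4A, which RefSeq now names SLC60A1 and which would join the solute carriers under that name, was at -1.52 in the authors' deposited table. Of 18 annotated MFSD genes 1 was listed, and of 13 annotated aquaporins 2 were listed. AQP2, the vasopressin-regulated water channel of the kidney collecting duct, was at -2.59 and AQP7, a channel for water and glycerol, at -2.49 in the authors' deposited table. Of 14 annotated lipid flippases of the P4 ATPase family 3 were listed, with ATP10D at 1.82, ATP8B1, mutated in an inherited cholestasis, at -1.57 and ATP11A at -1.22 in the authors' deposited table. The listed share over all protein-coding symbols was 3.71%, and nothing is read from the counts of these groups.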
